A study of Mus musculus with 121 samples.

Results

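The 10 genes described here are the immediate early genes Fos, Fosb, Fosl1, Fosl2, Jun, Junb, Egr1, Egr2, Ier2 and Atf3. They were chosen by name, with Ensembl identifiers matched to mouse symbols. The rule uses no measured value, though the set was picked with earlier results of these data known. All 10 are among the 31053 gene identifiers of the count tables, and all 10 were among the 13292 genes tested, which had at least 1 CPM (counts scaled to a library total of 1000000) in at least 3 libraries. RNA came from immortalized fibroblasts of the mouse ear with a PER2::LUC sv knock-in, a luminescent reporter of the clock protein PER2. All groups share this allele and the single cell line, and the line is the only model measured. The cells lived in microfluidic chambers for 3 days of cycles in which the medium was changed every 12 h, then ran free for 12 h, and were collected 6 times at intervals of 4 h (0 to 20 h from the first collection). These hours follow the collection number in the titles, whose clock hours do not all advance with it. Collections 1 to 6 carry the hours 20, 12, 4, 8, 12 and 16 in HH and HL and 20, 12, 16, 20, 12 and 16 in LH. They advance by 4 h in all 3 treatments only if read on a 12 h dial, so whether libraries of the same collection share a clock time in LH and in the others cannot be told from the titles. HL cells received medium H, rich in glucose and insulin, and then medium L, low in both. LH cells received the same media in the opposite order, and HH cells received medium H in both parts of every cycle. The design asks whether the order or presence of the low phase changes the level of a transcript or its course over the collections.

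Immediate early genes are transcribed within minutes of a stimulus without new protein synthesis, and their transcripts and proteins are short-lived. In fibroblasts they are best known as the first response to serum and growth factors, insulin among them, through the ERK cascade, the ternary complex of SRF with ELK factors, and CREB. Fos family proteins (Fos, Fosb, Fosl1, Fosl2) pair with Jun family proteins (Jun, Junb) to form the transcription factor AP-1. Egr1 and Egr2 are zinc finger factors, Atf3 is a bZIP factor induced by stress and growth signals, and Ier2 encodes a small nuclear protein of the same early response.

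The titles of the samples place 62 libraries in 18 groups of 2 to 4, with 21 HL, 22 LH and 19 HH libraries. Totals ran from 2136819 to 11619095 counts, except for LH collection 2 replicate 2 with 104912. In that library 3 counts equal 28.6 CPM, against 0.258 to 1.40 CPM in the others, and its members had between 0 counts (Fosl1, Egr2, Atf3) and 27 counts (Fosl2). The study's read summary gives another name to the library number of 35 libraries and does not list 5, while 22 have the same name in both, among them all HH libraries and HL collection 1. Names were taken from the titles, and the main results are also given by library number, which leaves 57 libraries, 19 in each treatment, with 1 library in LH collection 5. The study describes its replicates as biological in general, but the labels do not say which libraries came from separate cultures, and the p-values measure the spread between libraries. All 10 fibroblast markers were tested and together made up 18709 to 43423 CPM, whereas the epithelial list summed to at most 4.57 CPM with Krt5 at 0 in all libraries, and the muscle list to at most 1.95 CPM with Myod1 at 0. The endothelial and cartilage lists were low apart from 1 gene each, Kdr (median 177.5 CPM) and Sox9 (median 513 CPM). Pecam1 and Cdh5 of endothelium and Acan and Col2a1 of cartilage stayed at or under 3.31 CPM. Leukocyte markers summed to at most 7.06 CPM in HL and 5.95 CPM in HH, and to 124 CPM in the library of 104912 counts. Adipocyte markers summed to at most 0.240 CPM in HL and 0 in HH, and to 11.2 CPM in LH collection 2 replicate 4, which also had the highest mitochondrial share of all (3.60%) and the second lowest total (2136819 counts).

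Positions are those of GRCm38 (GENCODE M21). Fos is at chr12:85473890-85477273 on the + strand, Jun at chr4:95049034-95052222 and Junb at chr8:84974484-84978718 on the - strand, Fosl2 at chr5:32135801-32157842 on the + strand, and Fosb at chr7:19302696-19310051 and Atf3 at chr1:191170296-191218039 on the - strand. Jun, Junb and Ier2 each have 1 exon. The 3′ end of Junb overlaps the end of Prdx2, a peroxiredoxin gene on the opposite strand with 155456 counts in all libraries. Whether counting used strand is not given, so reads of Junb and Prdx2 in the shared stretch cannot be told apart, and Pearson's r between them over the 62 libraries was 0.44.

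RefSeq promoters were found for 7 of the 10 members. Within 250 bases upstream of the start, the cyclic AMP half-site TGACG, on either strand, was found in 5 of these (Atf3, Egr2, Fos, Fosb and Junb) and in 17.8% of 32851 promoters. A member counts if any of its promoters matches, and Egr2 has 5, while the shares count each promoter, so the units are unlike. The full palindrome TGACGTCA, which contains that half-site, was in 0 of the 7 and in 1.55% of promoters, and the AP-1 motif TGACTCA was in 0 of the 7 and in 4.46%. TATAAA was in the Fos promoter alone among them, against 7.59% of promoters, and the CArG box bound by SRF was in that of Egr2 alone, against 1.47%. The 100 bases before the start, 5′ to 3′ on the gene's strand, are shown for Fos, Fosb and Atf3, each with 1 promoter in RefSeq that holds the half-site there, with the half-site in capitals. Of the 5 promoters listed for Egr2, which are not shown, 2 overlapping ones hold it within that distance as well. They are at chr12:85473790-85473889 (+) for Fos, chr7:19310046-19310145 (-) for Fosb and chr1:191183334-191183433 (-) for Atf3 in GRCm38.p6.
Fos: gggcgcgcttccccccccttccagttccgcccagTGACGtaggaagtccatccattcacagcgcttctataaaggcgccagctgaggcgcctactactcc
Fosb: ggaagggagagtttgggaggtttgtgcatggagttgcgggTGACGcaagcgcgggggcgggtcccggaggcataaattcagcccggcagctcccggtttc
Atf3: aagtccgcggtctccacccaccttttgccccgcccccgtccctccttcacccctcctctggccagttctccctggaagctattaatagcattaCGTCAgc
These matches are descriptions of letters. No binding was measured, and the start RefSeq gives for Atf3 lies inside the longer gene of GENCODE.

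The members differed widely in the depth behind them. Fosl2 had 93910 counts in all libraries together (265.8 ± 48.6 CPM, SD, n = 62) and Jun had 60450 (168 ± 24.4 CPM). Egr1 had 11539 counts (32.2 ± 13.8 CPM) and Junb 9795 (27.9 ± 9.81 CPM). Fosb with 3552, Ier2 with 2275 and Atf3 with 1406 counts are resolved less well. Fos had 847 counts, Egr2 450 and Fosl1 377, and these 3 genes were at 0 in 1, 4 and 9 libraries. Between replicates Jun varied least, with a biological coefficient of variation of 0.153, below the 0.204 that edgeR fitted for genes of its level. Fosl2 was also below its trend (0.167 against 0.204), while Egr1 (0.301 against 0.225) and Junb (0.295 against 0.231) were above theirs. Fosl1 varied most, at 0.947 against 0.685.

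**Figure D1:**
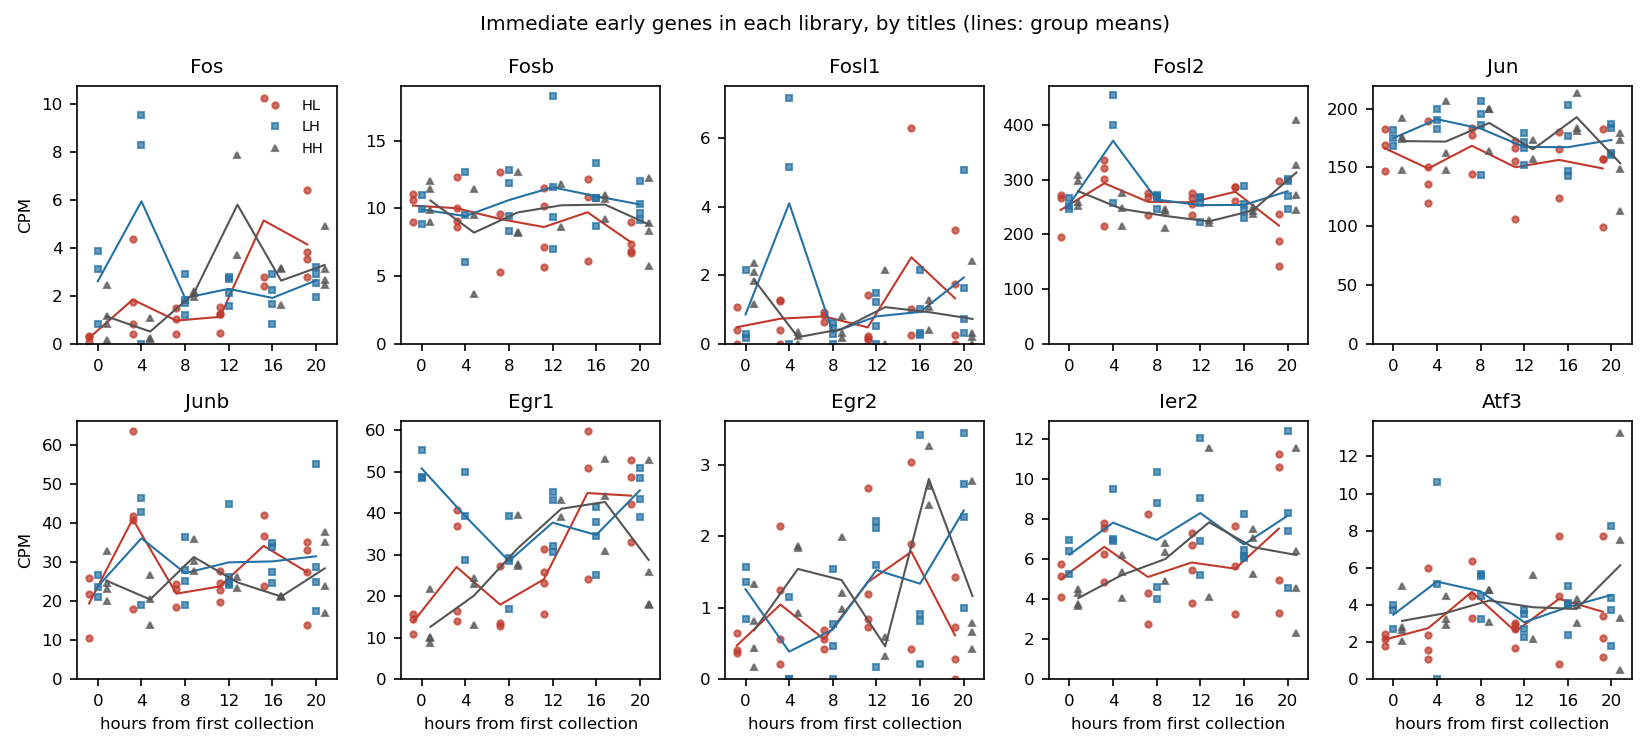
Level of each of the 10 genes in CPM (vertical axis) in every library against hours from the first collection (horizontal axis), grouped by the titles, with HL as circles, LH as squares and HH as triangles, set slightly apart, and lines through the group means. Egr1 runs between 8.60 and 59.7 CPM with its lowest HL and HH values at 0 h, Jun stays between 99.5 and 213 CPM, and the highest Fos and Fosl1 values belong to single libraries.

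In 4 libraries the growth factor gene Ereg (epiregulin, a ligand of the EGF receptor) stood far above the rest, at 2002 CPM in LH collection 2 replicate 1, 1070 in HL collection 5 replicate 2, 943 in HL collection 2 replicate 3 and 668 in HL collection 6 replicate 3. The other 58 libraries had 5.15 to 147 CPM. The same 4 were the 4 highest of all libraries for Ier3, an early gene linked to survival, with 1682 to 4508 CPM against at most 854 elsewhere. They were likewise the 4 highest for the early transcription factor genes Klf4, Nr4a2 and Maff and for Ppp1r15a, a stress-induced phosphatase subunit. Several members were high in these libraries too, but not all. Fos was at 8.31, 10.2, 4.39 and 6.44 CPM in the same order, ranks 3, 1, 7 and 5 of 62. Fosl1 was at 7.15, 6.30, 1.26 and 3.31 CPM, and its 2 highest values of all were in LH collection 2 replicate 1 and HL collection 5 replicate 2. Atf3 was at 10.6, 7.72, 5.96 and 7.72 CPM against a median of 3.26 in the other libraries. Junb was at 42.7, 41.9, 63.4 and 35.1 CPM, and the third of these is the highest of all. Jun did not share this, with ranks of 58, 59 and 62 in the 3 HL libraries and 6 in the LH library. In the order of the Fos values, Fosl2 had ranks 3, 15, 6 and 11 and Fosb 5, 21, 28 and 41. Egr2 had ranks 27, 15, 24 and 38, and Ier2 23, 36, 16 and 59. Egr1 held its highest value of all in HL collection 5 replicate 2 (59.7 CPM), but only rank 51 in HL collection 2 replicate 3 (16.3 CPM). By library number 3 of the 4 carry other names, LH collections 3, 4 and 6, and the fourth is not listed. Results that rest on these libraries are given with and without all 4, a step chosen after the values were seen.

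**Figure D2:**
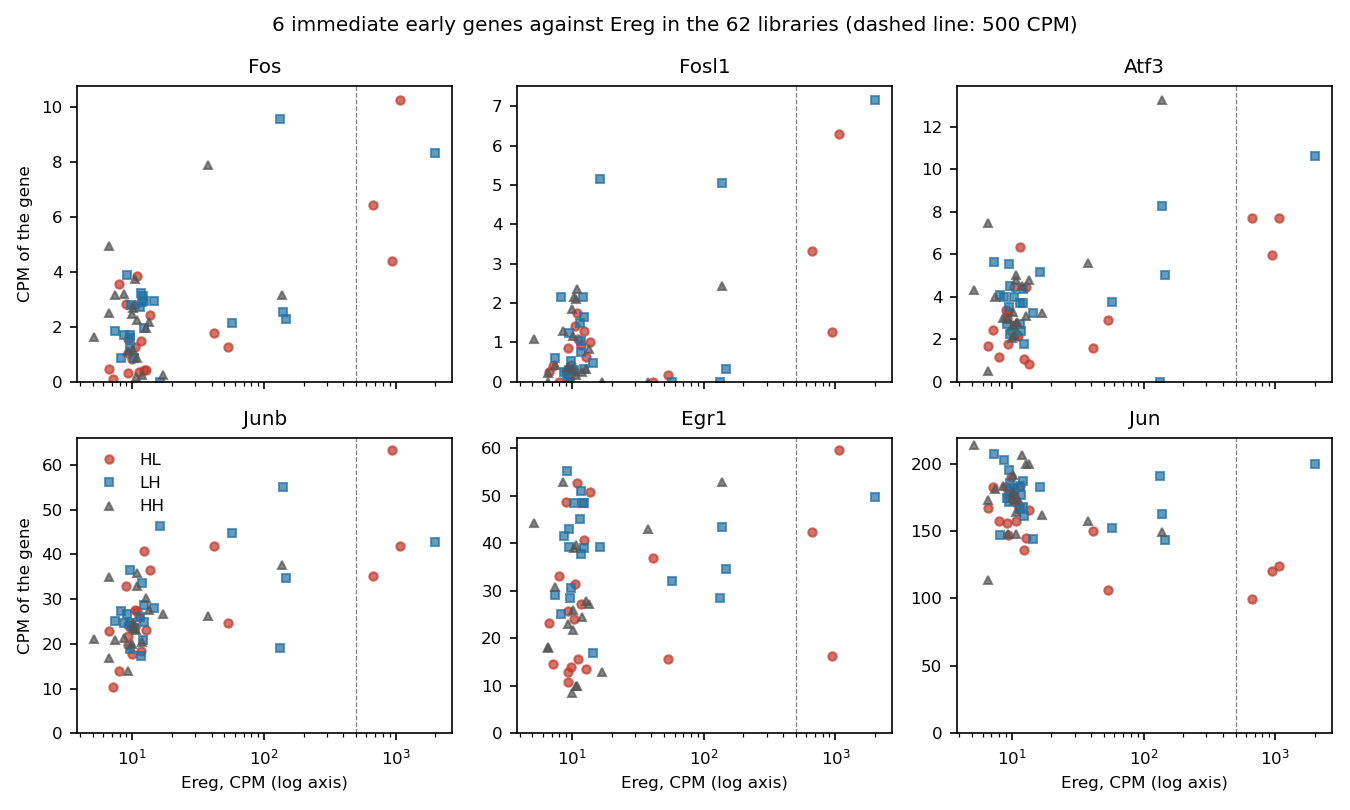
Level of 6 of the genes in CPM (vertical axes) against Ereg in CPM (horizontal axis, logarithmic) in the 62 libraries, with symbols by treatment as titled and a dashed line at 500 CPM of Ereg. The 4 libraries to the right of the line hold the highest Fosl1, Fos and Junb values and the lowest Jun value, while Egr1 in them spans 16.3 to 59.7 CPM.

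Over the whole time course the treatments did not differ by the test in any of the 10 genes. With treatment and collection as terms in edgeR's quasi-likelihood test and Benjamini-Hochberg adjustment over all genes, 0 of the 10 were called in LH against HL, HH against HL or HH against LH, and the background was 0.00% of 13292 genes in each. The difference among the 3 treatments together was called in 0 of the 10 and in 0.00752% of all genes. At an unadjusted p under 0.05 there were 2 members in LH against HL (Egr1 and Jun), 0 in HH against HL and 2 in HH against LH (Egr1 and Ier2), beside 5.69%, 7.42% and 5.23% of all genes. These contrasts share libraries and are not independent of each other. By library number 0 of the 10 were called as well, and 0.0152%, 0.00758% and 0.0227% of genes were in the 3 contrasts and 0.0303% in the treatments together.

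Egr1 had the smallest p among the members. Its level was 10.9 to 59.7 CPM in HL (median 25.8), 17.0 to 55.3 in LH (median 39.3) and 8.60 to 52.9 in HH (median 25.9), so the 3 ranges overlapped over most of their length. LH exceeded HL by 0.52 on the log2 scale (SE 0.18, 95% interval 0.16 to 0.88, adjusted p = 0.557 in edgeR), and HH was below LH with a log2 fold change of -0.57 (SE 0.18, -0.94 to -0.20, adjusted p = 0.723). With an unadjusted edgeR p under 0.01 over the 3 treatments and under 0.05 for the contrast, Egr1 passes in both contrasts and is the only member that does so, beside 1.16% of all genes in LH against HL and 0.910% in HH against LH. These cut-offs follow the study's, but the test does not, since the study used an analysis of variance with a multiple comparison step and compared HH and LH each with HL alone. By library number no member passes those thresholds, and the log2 difference of Egr1 was 0.16 in LH against HL and -0.34 in HH against LH.

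Jun, the main partner of the Fos proteins, was at 99.5 to 190 CPM in HL, 143 to 207 in LH and 113 to 213 in HH. Its LH to HL difference was small, 0.14 on the log2 scale (0.01 to 0.27, adjusted p = 0.825 in edgeR). For Fosl2 the 95% intervals of all 3 differences lay between -0.27 and 0.24, which limits any change in its mean level between treatments to about that size. The intervals were far wider for the genes with few counts. In Fosl1, LH against HL ran from -0.71 to 1.35, and in Egr2 from -0.22 to 1.21, so these intervals leave room for sizeable differences in mean level. The median log2 difference over the 10 members was 0.29 in LH against HL, -0.18 in HH against LH and -0.01 in HH against HL, beside medians near 0.00 over all genes tested. By titles with 1 replicate left out at a time, the first ran from 0.10 to 0.39 and the second from -0.32 to -0.07. They were 0.36 and -0.08 by titles without the 4 libraries high in Ereg. By library number the median over the members was 0.01 in LH against HL and -0.07 in HH against LH. By number and without the 4 libraries high in Ereg the directions turned, to -0.09 with 8 of 10 members below 0 and to 0.08 with 8 of 10 above 0.

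**Figure D3:**
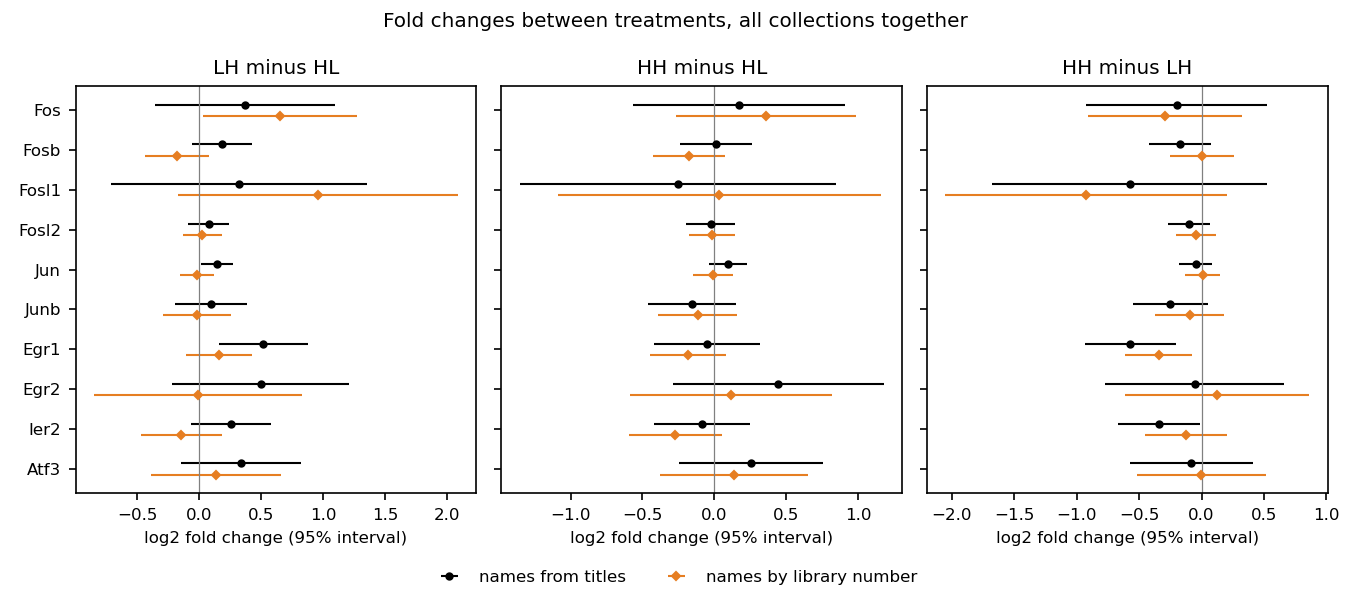
Log2 fold change of each gene (horizontal axis) with its 95% interval from edgeR, for LH minus HL, HH minus HL and HH minus LH, with names from the titles (black circles) and by library number (orange diamonds). Intervals are narrow for Jun and Fosl2 and widest for Fosl1, and the Egr1 difference of 0.52 in LH minus HL becomes 0.16 by library number.

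The clearest result among the members was the change of Egr1, a gene on the + strand of chromosome 18, over the collections. In HH, where the names are the same in both, the 4 libraries of collection 1 held 21.8, 8.60, 9.88 and 10.1 CPM. Collection 2 held 22.9, 24.4 and 13.0 CPM, and collection 3 held 27.1, 27.8 and 39.6 CPM. The means thus went up at each step, from 12.6 ± 6.19 (SD, n = 4) to 20.1 ± 6.19 and 31.5 ± 7.02 CPM. Collection 4 held 39.1 and 43.0 CPM, and collection 5 held 44.2, 30.9 and 52.9 CPM. All of these are above every library of collection 1. In collection 6 the libraries were apart from each other, at 25.9, 18.2, 17.9 and 52.9 CPM. The highest mean, at collection 5, was 3.39 times the lowest, at collection 1, and the difference among the 6 collections passed edgeR's test (adjusted p = 0.0322). Egr1 was the 1 member called in HH, against 0.293% of all genes, and with each HH replicate left out in turn the adjusted p was 0.0583, 0.162, 0.451 and 0.0766, and without LH replicate 2 it was 0.0516.

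In HL the same gene was at 14.5, 15.7 and 10.9 CPM in collection 1 and at 52.8, 48.7, 42.3 and 33.0 CPM in collection 6. Collection 5 was as high in its mean but not in every library, with 24.1, 59.7 and 50.8 CPM. Between these ends the course by titles was uneven, with means of 27.0 ± 13.8 (n = 4), 17.9 ± 8.12 (n = 3) and 24.0 ± 6.51 CPM (n = 4) at collections 2, 3 and 4. Egr1 and Fos were the 2 members called over the HL collections, against 0.301% of all genes, with adjusted p = 0.0062 for Egr1 in edgeR. Without HL replicate 2, which holds the library of 59.7 CPM, neither was called (adjusted p = 0.216 for Egr1 and 0.409 for Fos). Without the 4 libraries high in Ereg the adjusted p of Egr1 was 0.0202 in HL and 0.00763 in HH, where 0.190% and 1.18% of genes were called.

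In LH the 2 namings give different courses. By titles Egr1 began high, at 48.6, 55.3 and 48.4 CPM in collection 1, was lowest in collection 3 with 29.1, 39.2, 17.0 and 28.5 CPM, and ended at 43.4, 48.5, 51.0 and 39.0 CPM in collection 6. No member was called across the LH collections, where 2.93% of all genes were. By library number LH began at 14.1, 12.9 and 13.6 CPM in collection 1, had means of 22.1 ± 5.90 (n = 3) and 35.2 ± 16.6 CPM (n = 4) at collections 2 and 3, held 50.8, 52.8, 48.7 and 42.3 CPM in collection 4 and 33.0 CPM in the 1 library of collection 5, and ended at 48.6, 55.3, 48.4 and 49.8 CPM in collection 6. HL by number began with the same 3 libraries as by titles and had means of 28.4 ± 11.1 (n = 3), 30.4 ± 1.76 (n = 3), 36.9 ± 9.15 (n = 4), 40.9 ± 2.88 (n = 3) and 46.2 ± 6.34 CPM (n = 3) at collections 2 to 6. By number the mean of Egr1 was lowest at collection 1 in every treatment, and the highest mean was 3.37 times the lowest in HL, 3.74 times in LH and 3.39 times in HH. All 3 differences among collections passed the test by number, with adjusted p = 0.0375 in HL, 0.00075 in LH and 0.0065 in HH, against 0.394%, 1.05% and 0.803% of 13198 genes. The namings thus give Egr1 other means at every collection except the first of HL and those of HH.

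**Figure D4:**
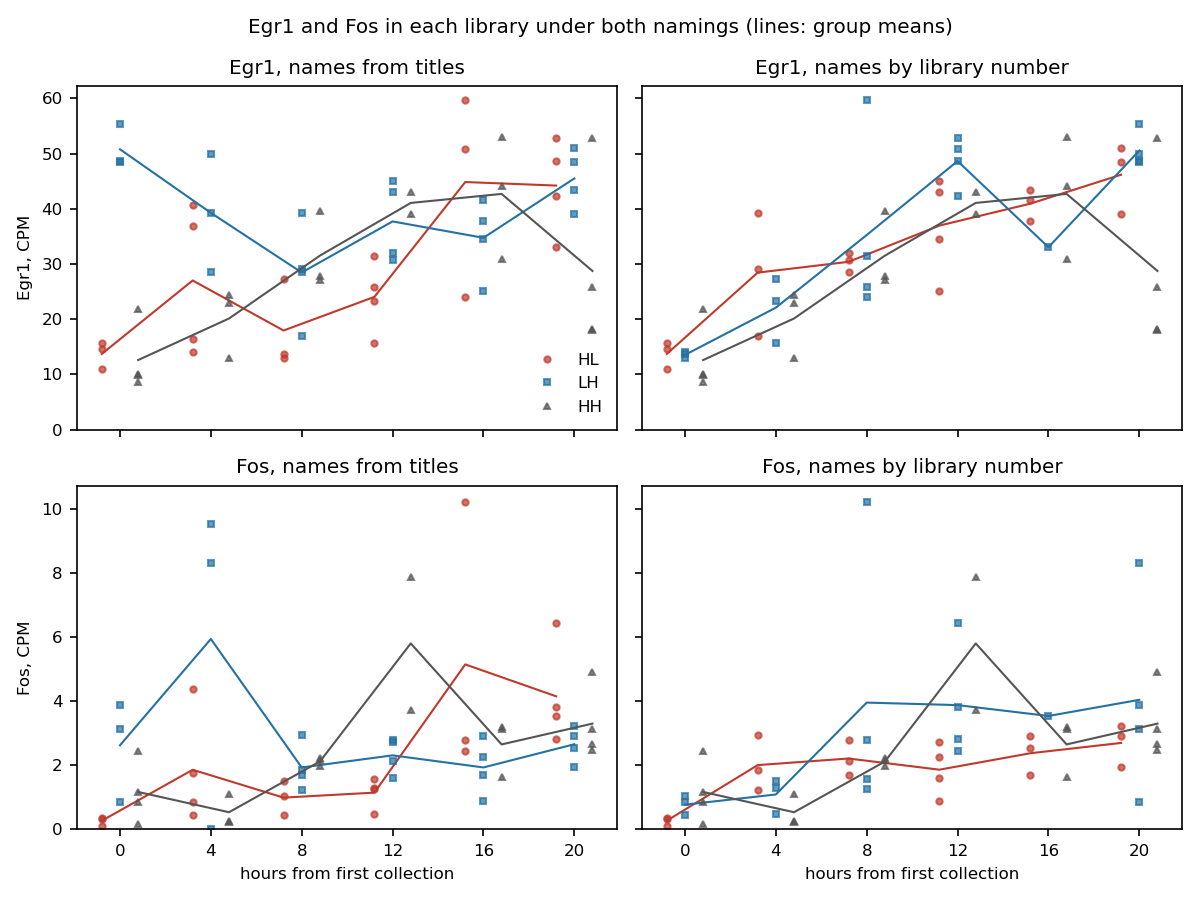
Egr1 (top) and Fos (bottom) in CPM (vertical axes) in every library against hours from the first collection, with names from the titles on the left and by library number on the right, HL as circles, LH as squares, HH as triangles and lines through group means. Egr1 in LH starts at 48.4 to 55.3 CPM by titles and at 12.9 to 14.1 CPM by number, while the HH points are the same on both sides.

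The difference in course between treatments was tested directly as the interaction of treatment and collection. By titles Egr1 was the 1 member called for HH and LH (adjusted p = 0.041 in edgeR, 0.0978% of all genes called), and 0 members were called for HH and HL (0.00752% of genes) or for LH and HL (0.00% of genes), where Egr1 had adjusted p = 0.448 and 0.225. By library number its adjusted p for HH and LH was 0.864, and 0.00% of genes were called. Without the 4 libraries high in Ereg it was 0.021 by titles (0.940% of genes called) and 0.704 by number. The call by titles was kept in 11 of 25 alternatives. It was lost with the replicate block (adjusted p = 0.0613), with library totals (0.0742) and with the first run alone (0.0893), and when any 1 of the 4 HH replicates, LH replicate 1, 2 or 3 or HL replicate 2 was left out (0.0581 to 0.201).

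Egr2, the second zinc finger factor of the set, was at or under 3.45 CPM in every library. Its HH mean was highest in collection 5, with libraries at 2.44, 2.71 and 3.27 CPM, and lowest in collection 4, with libraries at 0.589 and 0.329 CPM. It was called in no comparison, and with 450 counts over all libraries most of its group means rest on a few counts.

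Fos, the founding member of its family, was near its limit of detection in some collections. In HL it was at 0.102, 0.360 and 0.321 CPM in collection 1, on 1, 2 and 2 counts. It was at 2.78, 10.2 and 2.44 CPM in collection 5 and at 3.83, 2.82, 6.44 and 3.54 CPM in collection 6. No library of collections 5 and 6 was as low as any of collection 1, though all 3 of collection 1 hold fewer than 3 counts and give no firm ratio. The difference among the HL collections was called (adjusted p = 0.014 in edgeR). It was not called without the 4 libraries high in Ereg (adjusted p = 0.0786), 2 of which are in HL collections 5 and 6, without HL replicate 1 (0.0517), with the first run alone (0.177), nor by library number (adjusted p = 0.547), where collections 2 to 6 of HL had means between 1.86 and 2.70 CPM.

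In HH Fos was at 1.10, 0.249 and 0.233 CPM in collection 2 and at 3.73 and 7.89 CPM in collection 4. The remaining HH collections lay between, with means of 1.16, 2.11, 2.65 and 3.30 CPM at collections 1, 3, 5 and 6. The difference had adjusted p = 0.214 in edgeR, and adjusted p = 0.0425 without the 4 libraries, none of which is an HH library. Leaving them out can act on HH only through the shared estimate of spread, the scaling and the set of genes tested. In LH by titles Fos was at 8.31, 9.53 and 0 CPM in collection 2, where the second value is a single count of the library with 104912, and the means of the other collections were 1.93 to 2.65 CPM. The interactions of treatment and collection for Fos had adjusted p = 0.227, 0.274 and 0.169 for HH and HL, LH and HL, and HH and LH.

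Fosb stayed close to 1 level throughout. Group means by titles ranged from 7.50 to 10.2 CPM in HL, 9.44 to 11.6 in LH and 8.22 to 10.6 in HH, and it was called in no comparison. Fosl1, which encodes FRA-1, had 0 counts in 9 libraries and its highest values in single libraries. Its HL libraries of collection 5 were at 0.278, 6.30 and 1.02 CPM, and its LH libraries of collection 2 at 7.15, 0 and 5.15 CPM. The first LH value is a library high in Ereg and the second the shallow one.

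Fosl2, which encodes FRA-2, had the most counts and its values were close within most groups. In HH it was at 221 and 227.1 CPM in collection 4 and at 272.5, 326, 408 and 244 CPM in collection 6, a ratio of means of 1.40. In LH by titles it was at 399.9, 257.4 and 455 CPM in collection 2, while the other LH collections had means of 253.5 to 278.8 CPM. The difference among collections had adjusted p = 0.065 in LH and 0.524 in HH in edgeR. In LH it was called with DESeq2 and in the fit without the library of 104912 counts, whereas without the 4 libraries high in Ereg, which include the one at 399.9 CPM, the adjusted p was 0.494 by titles and 0.495 by number.

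Jun changed little in time, with group means from 149 to 168 CPM in HL, 167 to 191 in LH and 154 to 193 in HH. Its smallest values, 99.5, 106, 113, 120 and 124 CPM, were each in 1 library of a group whose other libraries were at 136 CPM or more. Junb, a Jun protein that is a weaker activator and can oppose Jun, was at 40.7, 41.8, 63.4 and 17.8 CPM in HL collection 2 by titles and at 10.4, 26.0 and 21.7 CPM in HL collection 1. The groups overlapped, and the difference among HL collections had adjusted p = 0.218 in edgeR. In HH its means were between 20.4 and 31.2 CPM.

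Ier2 had its lowest HH mean in collection 1, with libraries at 4.50, 4.30, 3.65 and 3.74 CPM. Its mean was 7.84 CPM in collection 4, where the 2 libraries were at 11.6 and 4.11 CPM. Group means were 5.00 to 7.53 CPM in HL and 6.22 to 8.30 in LH, and no test called it. Atf3 reached 13.3 CPM in 1 HH library of collection 6, where another was at 0.496 CPM. Its means were 2.13 to 4.70 CPM in HL, 3.06 to 5.25 in LH and 3.14 to 6.13 in HH, with no call in any comparison.

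At single collections, 18 contrasts of 2 treatments were tested, and the members were called 7 times. Egr1 at collection 1 was higher in LH than in HL by 1.88 on the log2 scale (SE 0.37, adjusted p = 0.0102 in edgeR, 0.113% of all genes called). It was lower in HH than in LH with a log2 fold change of -2.04 (SE 0.34, adjusted p = 0.00095, 0.256% of genes called). The groups did not overlap, as was the case for 15.9% of all genes in LH and HL and for 19.3% in HH and LH at this collection. With HL replicate 2, 3 or 4 or LH replicate 2, 3 or 4 left out, the LH to HL difference was 1.76 to 1.96 but was not called (adjusted p = 0.0527 to 0.141 in edgeR). By library number the LH libraries of collection 1 are others, and the LH to HL difference was -0.03 (SE 0.35) and that of HH to LH -0.13 (SE 0.33).

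The other 5 calls were in HH against LH at collection 2, where 7.15% of all genes were called. Log2 fold changes were -3.39 for Fos (adjusted p = 0.0181), -4.67 for Fosl1 (0.0399), -0.73 for Fosl2 (0.0217), -1.22 for Egr1 (0.0472) and -1.18 for Junb (0.0496) in edgeR. The HH libraries of that collection hold 9 counts of Fos and 4 of Fosl1 in all, so the size of these 2 differences is uncertain. These calls share 3 LH libraries, of which replicate 1 is the library with the most Ereg, replicate 2 the one with 104912 counts and replicate 4 the one with the highest mitochondrial share and adipocyte markers. All 5 stayed called in the fit without the library of 104912 counts (adjusted p = 0.00436 to 0.037 in edgeR). Leaving out LH replicate 4 kept all but Junb (0.0577). The part of these features in the calls was not tested beyond fits that leave libraries out. Without LH replicate 1 the difference in Fos was 0.00, and without the 4 libraries high in Ereg it was 0.02, and none of the 5 was called in either fit. In these 2 fits the log2 fold change was -3.99 and -3.97 for Fosl1, -0.92 and -0.91 for Junb, -0.74 and -0.72 for Egr1 and -0.49 in both for Fosl2. None was called without HH replicate 1 (adjusted p = 0.0618 to 0.221 in edgeR) or without HH replicate 3 (0.0727 to 0.136) either, with Fos at -4.54 and -2.93. In the remaining 15 contrasts 0 members were called. There the background was 0.278% in LH against HL at collection 2, 0.0828%, 0.0150% and 0.670% in HH against HL at collections 2, 3 and 6, and 0.00% in the others. By library number 0 of the 18 contrasts called a member, with 0.697% and 0.523% of genes called in HH against LH at collections 5 and 6, 0.796% in LH against HL at collection 5 and 0.00% in the others. Without the 4 libraries there were 4 calls by titles, Egr1 at collection 1 in both contrasts, Fos in LH against HL at collection 1 and Fosl2 in HH against HL at collection 6. In that fit 0.288% of 13190 genes were called in LH against HL and 1.21% in HH against LH at collection 1, and 4.93% in HH against HL at collection 6.

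For rhythm, JTK_CYCLE with the exact distribution of its rank statistic, a 24 h period and an unadjusted threshold of 0.01 passed 3 members in HH, Egr1 (P = 0.00134, peak at 12 h), Fosl2 (P = 0.00408, peak at 22 h) and Fos (P = 0.00529, peak at 14 h), among 1.24% of all genes. The study's minimum amplitude was not applied, and Fos was at most 7.89 CPM in HH. In HL (0.466% of genes) and LH (0.888%) by titles 0 of the 10 passed. Egr1 had a JTK_CYCLE P, corrected over the phases, of 0.124 in HL and 0.0526 in LH, with the best phase at 18 and 22 h. After adjustment over all genes 0 members passed in HH as well. The collections cover a single cycle, so a course that only climbs, as that of Egr1 did up to collection 5, and a 24 h rhythm cannot be told apart with these times. Without HH replicate 3 none of the 3 passed, and Egr1 was the 1 that passed without HH replicate 1 or without HH replicate 4.

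Across the 62 libraries the members did not vary as 1 block. On log2(CPM + 1), the 45 pairs had a Pearson r between -0.34 (Jun and Junb) and 0.53 (Fosl2 and Junb), with a median of 0.15 and 36 pairs above 0. Fos and Egr1 had r = 0.50, which was 0.01 once group means were removed, so their shared variation lay between the groups. Fosl1 and Atf3 had r = 0.44, and 0.57 after the group means were removed, so theirs lay between libraries of the same group by titles. In LH collection 2 replicate 1, the library highest in Ereg, they were at 7.15 and 10.6 CPM. The library of 104912 counts, in the same group, held no counts of either. Their r without these libraries was not computed. All pairs share libraries and depth, and low counts leave the values for Fos, Fosl1 and Egr2 uncertain.

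**Figure D5:**
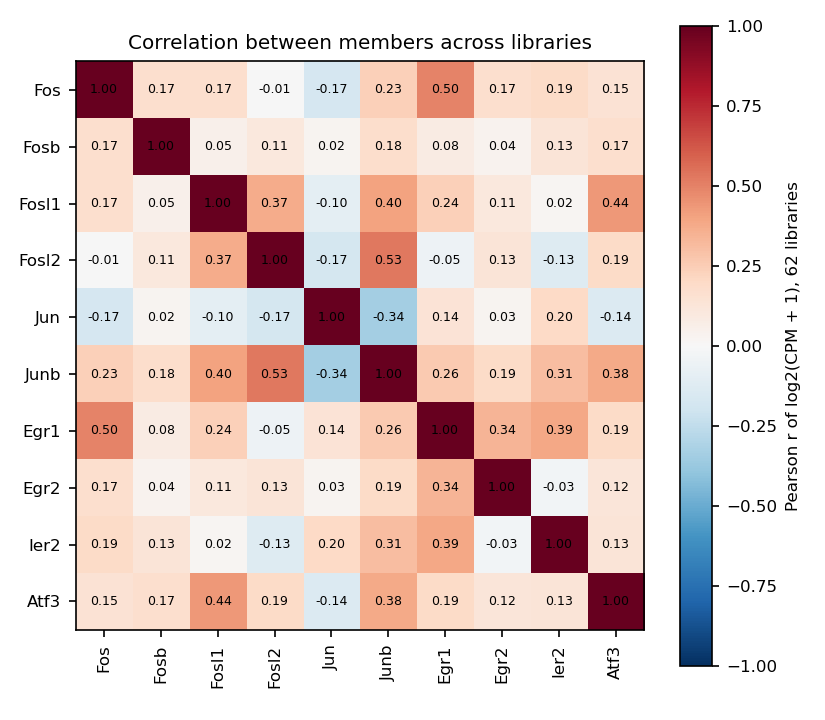
Pearson r of log2(CPM + 1) between each pair of the 10 genes over the 62 libraries, from blue (negative) to red (positive), with the value in each cell. The highest values off the diagonal are 0.53 for Fosl2 and Junb and 0.50 for Fos and Egr1, and the lowest is -0.34 for Jun and Junb.

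Among 7780 genes with a mean of at least 10 CPM, those closest to each of the 4 better counted members over the 62 libraries were named by r. Fosl2 was closest to Paics and Ppp3r1 (both 0.84) and Yap1 (0.83), and Junb to Max (0.80), Cd9 (0.78) and Yipf4 (0.77). Jun was closest to Ebf1 and Ice1 (both 0.67) and Snrk (0.66). Egr1 was closest to Aspn (0.73), the gene of the matrix protein asporin, and to Stc2 and Tgfb2 (both 0.61). With group means removed Egr1 and Aspn had r = 0.39, whereas Fosl2 and Ppp3r1 still had 0.84.

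The wider pathway was read from lists of related genes, with calls over the collections in edgeR, to be read against 0.293% of all genes called in HH, 0.301% in HL and 2.93% in LH. None of the lists held a gene called between treatments over the whole time course. Of 37 other immediate early genes tested, 1 was called in HH (Bhlhe40, a transcriptional repressor of the clock), 2 in HL (Egr3 and Maff) and 6 in LH (Csrnp1, Ier3, Ier5, Klf4, Maff and Nr4a2). By library number these were Bhlhe40, Egr3 and Ier5 in HH, Egr3 in HL and Egr3, Id2, Klf4 and Nr4a2 in LH, beside 0.803%, 0.394% and 1.05% of all genes. Without the 4 libraries high in Ereg those by titles became Bhlhe40 and Egr3 in HH, 0 genes in HL and Ier5 in LH, beside 1.18%, 0.190% and 0.864% of all genes. By number and without the 4 they were Bhlhe40, Egr3 and Ier5 in HH, Egr3 and Ier5 in HL and Egr3 and Id2 in LH, beside 2.04%, 0.785% and 1.13%. Egr3, the closest relative of Egr1 in the list, was at 3.02 CPM in HH collection 1 (0.409 to 6.33) and 11.3 in collection 6 (9.92 to 12.8), and in HL at 3.32 (3.05 to 3.47) and 13.9 (11.8 to 15.3). In LH collection 2 the Nr4a2 libraries ran from 7.49 to 106 CPM and those of Klf4 from 70.7 to 867 CPM, with the top values in replicate 1.

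Of 11 AP-1 partners and bZIP relatives, 0 were called in HL or HH and 2 in LH (Mafg and Mafk, small Maf proteins). Of 26 upstream kinases and factors 1 was called in LH (Elk3, a ternary complex factor) and 0 in HL or HH, which is near the share of all genes. Of 20 feedback regulators, 3 were called in LH (Dusp16, a phosphatase of MAP kinases, Nab1, a corepressor of Egr factors, and Spred2, an inhibitor of Ras to ERK signaling) and 0 elsewhere. By number or without the 4 libraries none of these 6 was called in LH. In HH, Map2k1, the kinase MEK1, was called by number and without the 4 libraries, and Spred2 was called without them. Spred2 also differed in course between HH and LH by titles (adjusted p = 0.026 in edgeR), with and without the 4 libraries but not by number.

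Among 14 late targets of these factors, Timp1, an inhibitor of metalloproteinases, was called in HL and HH, and the genes called in LH included Ereg, a growth factor of the EGF family, and Vegfa, an angiogenic growth factor. The calls of Ereg and Vegfa were lost by library number (adjusted p = 0.136 and 0.203 in edgeR), and without the 4 libraries none of the 14 was called in LH. The 4 were picked by Ereg itself, so for Ereg that fit is no separate check. Timp1 was highest in collection 1 of HH. Its HH libraries were at 321 to 370.4 CPM in collection 1 and at 85.8 to 174 CPM in all later ones, and its HL libraries went from 253.7 to 339 CPM in collection 1 to 97.1 to 106 CPM in collection 6. In LH by titles it was at 74.1 to 175 CPM throughout. Its course differed between HH and LH by titles (adjusted p = 0.0108 in edgeR) but not by number (0.693). By number Timp1 was called over the collections in all 3 treatments. Of 8 listed stress genes related to Atf3, 1 was called in LH (Ppp1r15a, again highest in the 4 libraries). It was not called by number (adjusted p = 0.123 in edgeR), nor was any of the 8 without the 4 libraries. Between treatments the smallest p was that of Trib3 in LH against HL (log2 fold change -0.64, SE 0.18, adjusted p = 0.472 in edgeR).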

How the data were processed

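Libraries were made by 3′DGE, which reads transcript ends. The authors deposited raw counts per Ensembl gene for 121 sequencing runs of 62 libraries, made per the submitters' processing notes with bcl2fastq, STAR 2.6.0a and HTSeq 0.9.1 on mm10. No source used here names an annotation release or says whether strand was used. Runs of a library were summed, without the 5 closing lines of each table, which belong to no gene (reads on no feature were 18.7% to 28.9%). CPM divides by the library total. A symbol with more than 1 identifier was read from the one with most counts. Levels were tested in edgeR 4.0.16 (R 4.3.3) with TMM scaling, the quasi-likelihood F test and Benjamini-Hochberg adjustment over 13292 genes at 0.05, with treatment and collection as terms or with a mean for each of the 18 groups. JTK_CYCLE was rewritten with its exact null distribution, a period of 24 h and phases in steps of 2 h. Both were tested on simulated data. Alternatives were names by library number, DESeq2 1.42.0, other scalings and filters, single runs, a replicate block and leaving out replicates. Fits without the 4 libraries over 500 CPM of Ereg, and those that join library numbers with a cosine or the replicate block, were added after seeing the data. The members and lists were chosen with earlier results of these data known. Text names the 10 members, genes of the lists that passed or had the 2 smallest p, and 3 neighbours of each member with a mean of at least 10 CPM; a late target that passed in LH is not reported here by name. Intervals cover 95%. Counting floors of 3 counts cover counting error only.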

Additional observations from a re-analysis of the deposited data

Results flagged for a closer look

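The 10 genes in the 9 groups of 4 libraries give 90 combinations, and in 5 of these 1 library stood apart from the other 3 by Dixon's criterion, which chance alone gives in about 1 of 20. Egr1 was at 21.8 CPM in HH collection 1 replicate 1, with the next library at 10.1 CPM. Junb was at 44.8 CPM in LH collection 4 replicate 2, with the next at 26.0 CPM. The other cases are genes with few counts. Fosl1 was at 2.42 CPM in HH collection 6 replicate 4 (next 0.314 CPM) and at 1.43 CPM in HL collection 4 replicate 3 (next 0.237 CPM), and Egr2 was at 2.78 CPM in HH collection 6 replicate 3 (next 0.784 CPM).

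The course of Egr1 over the collections differed between HH and LH by the test of the difference itself, with an adjusted p of 0.0409 in edgeR by titles. By library number the adjusted p was 0.864.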

How the results depend on the processing

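By library number the members called became 1 in HL (Egr1), 1 in LH (Egr1) and 1 in HH (Egr1) across collections, 0 for the course of HH and LH and 0 at single collections, and the log2 difference of Egr1 between LH and HL at collection 1 fell to -0.0273, well within its SE of 0.347. The counts by titles were 2, 0, 1, 1 and 7. The cause of each change below was not tested. The depth limits Fos, Fosl1 and Egr2, the members with the fewest counts.

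Each count of members is followed by the share of all genes called in the same fit. Across the HL collections 1 member was called with a filter of 5 CPM in 10 libraries (0.384%), 1 with the first run alone (0.212%) and 0 with a 24 h cosine (0.0451%). Across LH there were 1 with DESeq2 (5.24%), 1 with RLE scaling (3.30%), 3 without a filter (6.05%), 1 with the 5 CPM filter (4.16%) and 1 without libraries under 1000000 counts (3.87%). Across HH there were 2 with DESeq2 (1.01%), 2 without a filter (2.40%), 0 with the first run (0.198%) and 0 with the cosine (0.158%). For the course of HH and LH there were 2 with DESeq2 (0.940%), 0 with library totals (0.00%), 2 without a filter (3.93%) and 0 with the first run (0.0439%), for LH and HL 1 with DESeq2 (0.181%) and 2 without a filter (1.84%), and for HH and HL 3 without a filter (3.10%). Over the 18 contrasts at single collections (0.476% in all by titles) there were 4 calls with library totals (0.283%), 3 with the first run (0.290%) and 4 with the second (1.25%). JTK_CYCLE in HH passed 1 member with the first run (1.07%) and 0 after adjustment (0.0226%). The unadjusted thresholds of 0.01 over the treatments and 0.05 for the contrast gave 1 member in LH against HL (1.16%) and 1 in HH against LH (0.910%). By library number with the cosine 0 were called in HL (0.189%) and 1 in LH (0.242%).

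Without the 4 libraries over 500 CPM of Ereg there were 1 call across HL (0.190%), 2 across HH (1.18%) and 4 at single collections (0.600%), and the Fos difference of HH and LH at collection 2 went to 0.0155 (SE 0.813), near 0. By library number without them there were 1 across HL (0.785%), 1 across LH (1.13%), 2 across HH (2.04%), 0 for the course of HH and LH (0.00%), 0 at single collections (0.214%) and 1 by JTK_CYCLE in LH (1.94%), and the Egr1 difference at collection 1 was -0.0247.

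By titles, 6 of 53 pairs of libraries with the same replicate number and collection had deviations correlated over 0.1 (range -0.24 to 0.42, median -0.00147). Replicate numbers by library number were not examined this way, so these values do not settle whether replicates were paired. With the replicate block 1 member was called across LH (Fosl2, 3.14%) and 0 for the course of HH and LH (0.105%, Egr1 adjusted p = 0.0613 in edgeR). By library number with the replicate block there were 1 across HL (0.977%), 1 across LH (3.49%), 0 for the course of HH and LH (0.00%) and 0 at single collections (0.241%), and the Egr1 difference at collection 1 was -0.0362.

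With each replicate left out in turn, calls ranged from 0 to 2 across HL (0.0454% to 0.659%), 0 to 1 across LH (0.349% to 5.35%), 0 to 1 across HH (0.0303% to 0.371%), 0 to 1 for the course of LH and HL (0.00% to 0.333%), 0 to 2 for that of HH and LH (0.00756% to 0.719%), 2 to 8 at single collections (0.155% to 1.39%) and 0 to 3 by JTK_CYCLE in HH (0.408% to 1.25%). The Fos difference of HH and LH at collection 2 ranged from -4.54 to 0.0035, the last without LH replicate 1. The adjusted p over all alternatives in edgeR or DESeq2 ranged from 1.64e-05 to 0.999 for Fos in HL, 1.98e-14 to 0.587 for Egr1 in HL, 2.73e-10 to 0.451 for Egr1 in HH and 6.94e-11 to 0.864 for its course in HH and LH.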
